A study of Mus musculus with 6 samples.

Results

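Far intergenic H3K27ac peaks of mouse embryonic stem cells are described here. They were chosen by position from the peak list of control cells. A peak was a member if it lay on an autosome, was under 10000 bp wide, overlapped no protein-coding or lincRNA gene and had its nearest edge more than 50 kb from the nearest transcription start site (TSS) of any transcript of such a gene. Of the 22973 peaks in the list, 22518 were autosomal, 20922 of these were under 10000 bp wide, and 1323 were far intergenic, which is 6.32% of the 20922 (95% Wilson interval 6.0 to 6.66%). The peak calls, their widths and their distances to a TSS therefore chose the members and are given as descriptions, with no test.

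The study measured H3K27ac by chromatin immunoprecipitation and sequencing with the antibody ab4729 in E14 mouse embryonic stem cells, with HEK293T cells (a human embryonic kidney line) added as a spike-in. The 6 samples were 2 replicates each of vehicle control (DMSO), of NVP-2, a CDK9 inhibitor given at 100 nM for 120 min, and of actinomycin D (ActD), which binds DNA and was given at 800 nM for 120 min. All groups, controls included, came from 1 line, E14Tg2A, that carries Rosa26-Cre and Oct4-IRES-Puro, and grew with LIF, the MEK inhibitor PD0325901 and the GSK3 inhibitor CT-99021 (2i). The list analysed here was called on both control replicates together and holds positions alone, so it gives no height, no depth and no spread between replicates, and the treated cells were not analysed here. Intervals below describe counting over peaks of a single pooled list, and peaks are not replicates of a condition.

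H3K27ac marks the nucleosomes around active promoters and active enhancers, and it is deposited mainly by the acetyltransferases CBP and p300. Enhancers are stretches of DNA, often far from any gene, at which transcription factors bind and raise transcription from a promoter of the same chromosome. Long stretches without genes, called gene deserts, often flank genes of development and cell adhesion. In mouse embryonic stem cells some enhancers are known to derive from repeated elements that were copied across the genome, among them the long terminal repeats of retrotransposons.

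Many far peaks carried stretches of similar sequence on different chromosomes, and a few are printed first because much of what follows turns on them. In the 1 kb around the midpoints of the 1323 far peaks, 2223 words of 16 bases (a word and its reverse complement counted as 1) occurred in at least 10 far peaks and at a share at least 20 times that in tiles. Tiles are all 672673 consecutive 1 kb stretches that lie more than 50 kb from any TSS, hold no unknown base and overlap no peak. The words were joined into groups by how often they occurred in the same far peaks, and the groups are numbered by their count of words. The first copy of a group is from the far peak with the most of its words, and the second is the far peak of another chromosome that shared the most words of 16 bases with that stretch, so that the identities below are those of matched copies. The copies of groups 1, 2 and 6 are printed because they were the most alike of the 6 largest groups. Those of groups 3, 4 and 5, chosen in the same way, were 61.5, 79.5 and 89.5% identical over 200 bases without gaps. Capitals mark bases that lie in words of the group. Sequences are from the GRCm38 reference, 5′ to 3′.

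The largest group, group 1, held 301 words. The first copy lies in the peak chr3:18694657-18699174, 214 kb from the TSS of 4930433B08Rik, at chr3:18696758-18696957 on the plus strand. The second lies in the peak chr4:12755720-12757222, 150 kb from the TSS of Triqk, at chr4:12756309-12756508 on the plus strand.
group 1, chromosome 3: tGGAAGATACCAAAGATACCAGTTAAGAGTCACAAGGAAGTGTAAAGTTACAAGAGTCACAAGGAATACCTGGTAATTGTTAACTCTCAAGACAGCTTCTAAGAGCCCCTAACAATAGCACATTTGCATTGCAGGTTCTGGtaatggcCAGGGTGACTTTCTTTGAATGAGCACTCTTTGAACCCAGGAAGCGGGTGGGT
group 1, chromosome 4: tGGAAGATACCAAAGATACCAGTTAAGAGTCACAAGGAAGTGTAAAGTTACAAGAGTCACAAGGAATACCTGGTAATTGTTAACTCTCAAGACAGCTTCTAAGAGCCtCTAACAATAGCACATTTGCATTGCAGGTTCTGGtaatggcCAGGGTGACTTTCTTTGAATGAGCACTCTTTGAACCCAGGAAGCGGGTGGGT
The copies were 99.5% identical over these 200 bases, and both held the octamer bound by OCT factors (ATGCAAAT, here on the minus strand).

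Group 2 held 232 words. The first copy, at chr2:67247004-67247203 on the plus strand, lies in a peak 50.6 kb from the TSS of Gm13598, and the second, at chr5:18630665-18630864 on the plus strand, lies in a peak 139 kb from the TSS of Gm31752.
group 2, chromosome 2: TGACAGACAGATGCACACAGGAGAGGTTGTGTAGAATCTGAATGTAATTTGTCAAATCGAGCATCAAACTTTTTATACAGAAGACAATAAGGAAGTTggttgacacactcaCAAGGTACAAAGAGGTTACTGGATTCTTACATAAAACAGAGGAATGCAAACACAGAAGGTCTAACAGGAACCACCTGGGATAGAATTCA
group 2, chromosome 5: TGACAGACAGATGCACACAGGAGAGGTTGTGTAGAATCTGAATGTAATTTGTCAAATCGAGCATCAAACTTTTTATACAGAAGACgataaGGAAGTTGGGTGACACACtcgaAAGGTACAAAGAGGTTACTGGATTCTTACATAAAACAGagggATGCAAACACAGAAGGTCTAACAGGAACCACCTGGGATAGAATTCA
These copies were 97.5% identical. The octamer was in neither of them.

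Group 6 held 127 words. The first copy, at chr1:4660222-4660421 on the plus strand, lies in a peak 73.4 kb from the TSS of Gm37323, and the second, at chr8:27658910-27659109 on the minus strand, lies in a peak 53.8 kb from the TSS of Gm1698.
group 6, chromosome 1: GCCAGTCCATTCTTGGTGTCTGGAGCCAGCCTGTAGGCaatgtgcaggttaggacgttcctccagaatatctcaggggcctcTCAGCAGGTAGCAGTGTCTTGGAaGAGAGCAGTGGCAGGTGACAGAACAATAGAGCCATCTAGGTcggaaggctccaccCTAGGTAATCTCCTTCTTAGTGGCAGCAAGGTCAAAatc
group 6, chromosome 8: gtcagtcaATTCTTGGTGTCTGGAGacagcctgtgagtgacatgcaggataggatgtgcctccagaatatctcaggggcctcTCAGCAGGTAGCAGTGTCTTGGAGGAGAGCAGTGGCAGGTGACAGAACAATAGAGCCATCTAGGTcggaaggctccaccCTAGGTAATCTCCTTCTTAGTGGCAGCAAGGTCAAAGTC
These copies were 93.0% identical when laid base against base without gaps.

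The far peak farthest from any TSS, chr5:55677352-55678673, held words of the same kind. It was 1322 bp wide and lay 1327 kb from the nearest TSS, that of the lincRNA gene Gm10440, in an interval of 3368 kb without a TSS that ends at Pcdh7, a protocadherin gene. Its middle 300 bases, chr5:55677863-55678162 on the plus strand, are printed with all recurrent words in capitals.
farthest peak: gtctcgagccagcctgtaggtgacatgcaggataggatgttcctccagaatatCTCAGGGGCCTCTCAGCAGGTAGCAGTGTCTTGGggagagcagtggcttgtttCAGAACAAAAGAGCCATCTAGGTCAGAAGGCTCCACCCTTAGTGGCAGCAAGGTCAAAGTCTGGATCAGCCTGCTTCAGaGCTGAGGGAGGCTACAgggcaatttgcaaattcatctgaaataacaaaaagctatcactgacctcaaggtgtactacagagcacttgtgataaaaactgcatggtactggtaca
In its central 1 kb it held 101 recurrent words, and 93.9% of its bases were repeat-masked in the reference. The next farthest peak lay 1296 kb from Cdh20. The 3 after that lay 1131, 1121 and 1111 kb from the lincRNA gene Gm48421.

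Words of 16 bases were found on some autosomes and counted on the others to describe how common they were, because a word chosen for its recurrence in a set of peaks must recur in that set. Words were first found on odd-numbered autosomes alone, in at least 5 far peaks there and at a share at least 20 times that in the tiles there. Of the 688 far peaks on even-numbered autosomes, 159 held at least 10 of these words in their central 1 kb, which is 23.1% (95% Wilson interval 20.1 to 26.4%). The same words were present at this count in 0.488% of the tiles of even-numbered autosomes, in 6.11% (4.88 to 7.62%) of the 1179 intergenic peaks 10 to 50 kb from a TSS, in 5.25% (3.76 to 7.28%) of the 629 intergenic peaks within 10 kb and in 1.68% (1.41 to 2.01%) of the 7075 peaks that overlapped a gene. The share in far peaks was higher than in the tiles by 22.6 percentage points (95% Newcombe interval 19.6 to 25.9). The words were sought in far peaks alone, which favours far peaks over the other classes of peak on any chromosome, so the shares of those classes are descriptions. They were also chosen as rare in the tiles of the autosomes where they were found, so the difference from tiles is a description too. In the other direction, with words of even-numbered autosomes, the share was 26.5% (23.2 to 30.0%) of the 635 far peaks on odd-numbered autosomes against 0.648% of the tiles there.

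**Figure D1:**
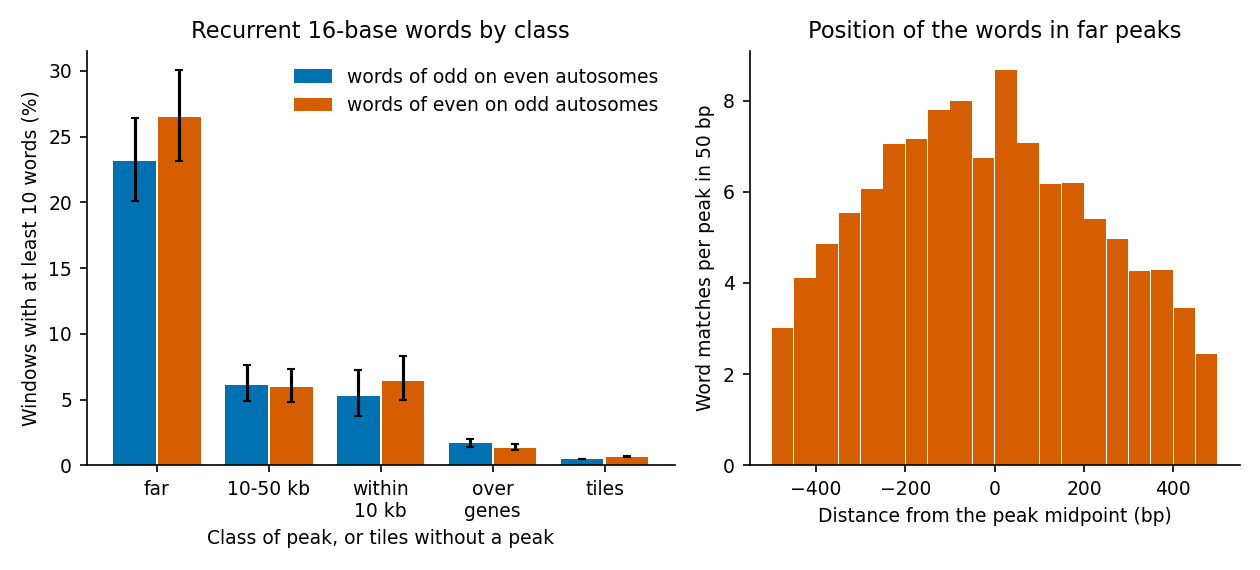
Left, percent of 1 kb windows with at least 10 recurrent 16-base words, by class of peak and in tiles, for words found on autosomes of the other parity; bars are shares and lines are 95% Wilson intervals. Right, matches of recurrent words per peak in bins of 50 bp around the midpoint of the far peaks that hold at least 10 of them. The far peaks, in which the words were sought, stand at 23.1 and 26.5%.

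With words of all autosomes, 325 far peaks held at least 10 words, and they are called word-sharing peaks below. They were found on all 19 autosomes. The most words in a far peak was 438. Matches numbered 8.66 per word-sharing peak in the 50 bp just after the midpoint, 3.01 in the first 50 bp of the window and 2.44 in the last. The words were chosen in these same windows and cannot start at the very end of one, so this profile is in part set by that choice. Such windows were not only in far peaks: 3555 tiles also held at least 10 words, as did 5.78% of the peaks at 10 to 50 kb, 5.29% of those within 10 kb and 1.41% of those over genes. Of the far peaks and tiles with at least 10 words, 8.38% were far peaks, which made up 0.196% of all far peaks and tiles.

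The words fell into 53 groups, and the 6 largest were described one by one. A peak was counted for a group if it held at least 25% of the group's words. Group 1 was held by 23 far peaks on 12 chromosomes and by 164 tiles, group 2 by 26 far peaks and 134 tiles, group 3 by 20 far peaks and 150 tiles, group 4 by 22 far peaks and 59 tiles, group 5 by 32 far peaks and 102 tiles, and group 6 by 29 far peaks and 76 tiles. As shares of windows, far peaks exceeded tiles by 67.8 times for group 3 and by 194 times for group 6, with the others between. Peaks of the other classes held the groups too, and in each group they outnumbered the far peaks: from 32 for group 1 to 39 for group 6 of the 19599 such peaks, or 0.163 to 0.199%, against 1.51 to 2.42% of the far peaks. Since the groups were made from these far peaks, these ratios are descriptions.

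In all, 141 far peaks held at least 1 of the 6 groups and 11 held more than 1, of which 8 held groups 2 and 3 together. The median masked share of the peaks that held a group was between 48.2% (group 5) and 62.4% (group 4). No table of repeat families was used here, so the groups are not given family names. Copies this alike also bear on mapping: the study excluded reads of low mapping quality before peak calling, and the part of that step in which copies are listed as peaks was not tested.

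The OCT octamer was common in group 1. It was in the central 1 kb of 21 of the 23 far peaks of group 1, as in both copies printed above, while groups 2 to 5 had it in no far peak and group 6 in 2. In both copies it lies in words of the group, by which the peaks were counted, so the 21 in part restate that choice. Of the 38 word-sharing peaks with an octamer, 17 were outside group 1, out of 302 such peaks. The word of ESRRB (an orphan nuclear receptor of the naive stem cell network) was in 3 of the 29 peaks of group 6, in 1 peak each of groups 3 and 5 and in none of groups 1, 2 and 4. The E-box CACGTG, bound by MYC, was in 10 of the 20 peaks of group 3. It was in 4 of 23 peaks of group 1, 6 of 26 of group 2 and 6 of 22 of group 4. Groups 5 and 6 had it in 1 peak each, of 32 and 29. Over all word-sharing peaks the E-box was in 15.4%, against 13.3% of the other far peaks. The difference was 2.06 points (Newcombe interval -2.12 to 6.81).

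Word-sharing peaks lay farther from genes than the other far peaks. Their median distance from a TSS was 172 kb, against 88.0 kb for the other 998 far peaks. Distance was part of the rule that chose all the members, but not of the words. Word-sharing peaks had a lower GC content, 41.5% against 46.0% at the median, and a higher masked share, 51.7% against 22.2%. Both are descriptions, since choosing peaks by words that recur is close to choosing repeated sequence. Their median width was 2284 bp, against 1930 bp. They also stood more alone: 79 of 325 (24.3%) had another peak of the list within 25 kb, against 445 of 998 (44.6%), a difference of -20.3 points (95% Newcombe interval -25.6 to -14.5). Distance from a TSS was not matched in this count. Far peaks numbered 3.87 per Mb of tiles at 50 to 75 kb and 0.87 beyond 500 kb.

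The density of far peaks with and without the words was counted in bands of distance, as a description, since distance chose the members. At 50 to 75 kb from a TSS the list held 455 far peaks, of which 60 (13.2%) were word-sharing. Per Mb of tiles this was 3.36 other far peaks and 0.511 word-sharing peaks. At 75 to 100 kb there were 2.20 other far peaks per Mb and 0.447 word-sharing ones. At 100 to 200 kb there were 1.4 and 0.442, and at 200 to 500 kb 0.635 and 0.499.

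Beyond 500 kb there were 0.334 other far peaks and 0.536 word-sharing peaks per Mb, so that 45 of the 73 far peaks at this distance (61.6%) were word-sharing. Tiles with at least 10 words numbered 5.04 per Mb at 50 to 75 kb, 4.69 at 75 to 100 kb and 6.29 beyond 500 kb. The median GC content of far peaks was 46.2% in the nearest band and 41.2% in the farthest, and their median masked share was 24.5% and 48.2%.

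**Figure D2:**
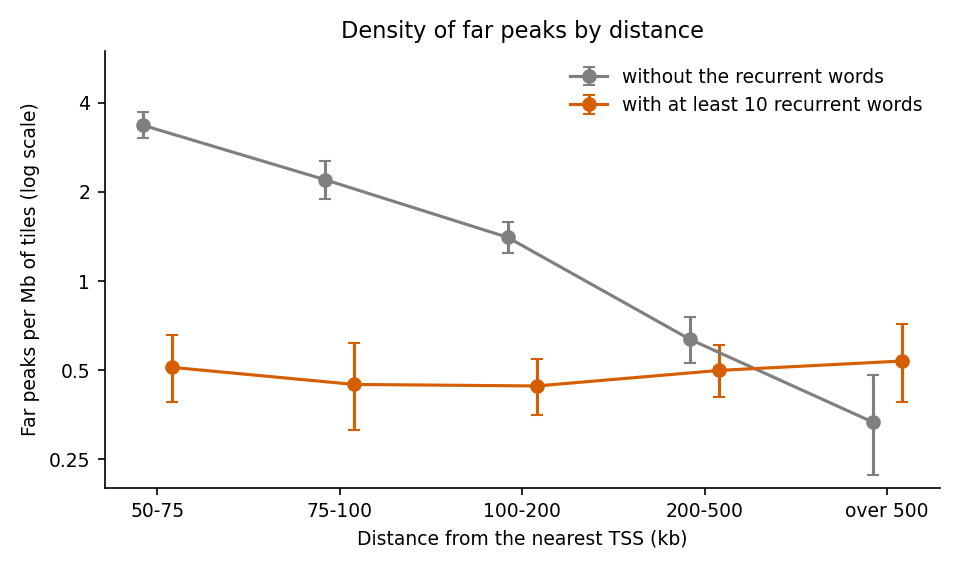
Far peaks per Mb of tiles (log scale) against the distance from the nearest TSS in 5 bands, split by whether the central 1 kb held at least 10 recurrent 16-base words; points are counts per Mb and lines are exact 95% Poisson intervals, which cover counting error alone. Peaks without the words number 3.36 per Mb in the nearest band and 0.334 in the farthest, and word-sharing peaks between 0.442 and 0.536.

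The rule's distance limit had no gap in it. The far peaks closest to 50 kb were at 50007 bp from Map3k7cl, 50029 bp from Reep3 and 50063 bp from Mib1, and the peaks just short of it were at 49991 bp from 5330413P13Rik, 49938 bp from Tiparp and 49889 bp from Ect2. The quartiles of distance over all far peaks were 66.3, 98.3 and 181 kb, against 89.0, 163 and 321 kb over the tiles. Widths had quartiles of 1400, 2007 and 3438.5 bp, and 188 far peaks (14.2%) were under 1 kb. The narrowest, chr16:53659883-53659978, was 96 bp wide and lay 831 kb from 4930405D01Rik. The median width of peaks 10 to 50 kb from a TSS was 1964.5 bp.

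Far territory, meaning all autosomal sequence more than 50 kb from a TSS and outside such genes, made up 680 Mb or 27.6% of the autosomes. Far peaks covered 0.510% of it at 1.95 peaks per Mb, against 8.50 peaks under 10000 bp per Mb of all autosomal sequence. Density ranged from 1.46 per Mb on chromosome 3 to 2.75 on chromosome 9, a smaller range than that of the counts, 21 on chromosome 19 to 109 on chromosome 1. As a share of each chromosome's peaks under 10000 bp, far peaks ranged from 3.15% on chromosome 7 to 11.1% on chromosome 18. Chromosome 7 had the fewest word-sharing peaks, 4 of its 46 far peaks, and chromosome 1 the most, 36 of 109.

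**Figure D3:**
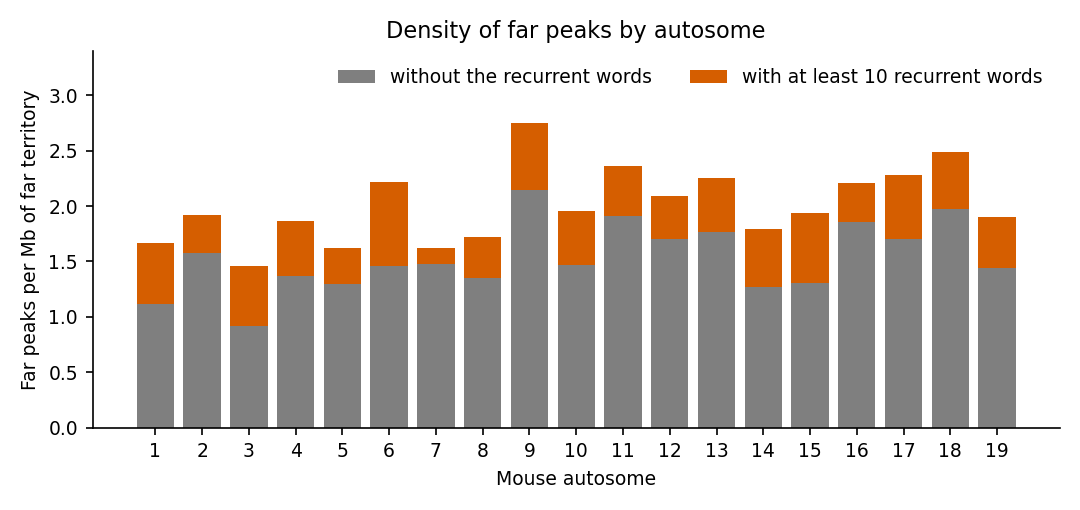
Far peaks per Mb of far territory on each of the 19 mouse autosomes, stacked into peaks without (grey) and with (orange) at least 10 recurrent 16-base words. Bars range from 1.46 on chromosome 3 to 2.75 on chromosome 9.

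Of the listed pluripotency factors, Sall1, Klf5, Tfcp2l1 and Sall4 were nearest to a far peak, the first 2 of them to more than 1. Nearest here means only the closest TSS of a protein-coding or lincRNA gene and is no sign of regulation. Of 26016 autosomal genes, 887 were nearest to at least 1 far peak (3.41%), and of the 5242 genes that were nearest to any far territory, 16.9% were. Of 27 listed pluripotency factors, 4 were nearest to a far peak (14.8%, 95% Wilson interval 5.92 to 32.5%), which is 44.4% of the 9 that were nearest to far territory.

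Sall1, a zinc finger factor that acts with NANOG, had 7 far peaks. They were 1646 to 4932 bp wide apart from 1 of 871 bp, lay 67.9 to 225 kb from its TSS, 5 upstream and 2 downstream, and had a GC content of 45.6 to 51.8%. None was word-sharing, and 4 of those upstream formed a run of 29.7 kb at chr8:89156303-89186031 in which each was within 25 kb of the next. Klf5, a Krüppel-like factor that helps to maintain the naive state, had 3 downstream at 75.2, 87.9 and 106 kb. Tfcp2l1, a factor of the naive network, had 1 at 148 kb, and Sall4, a zinc finger partner of OCT4, had 1 at 52.3 kb.

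The middle 300 bases of the Sall4 and nearest Klf5 peaks are printed to set them beside the repeated sequences above, with matches of the words of OCT, SOX, ESRRB, KLF, STAT and MYC in capitals. The Sall4 stretch is chr2:168820832-168821131 and the Klf5 stretch is chr14:99375180-99375479, both on the plus strand.
Sall4: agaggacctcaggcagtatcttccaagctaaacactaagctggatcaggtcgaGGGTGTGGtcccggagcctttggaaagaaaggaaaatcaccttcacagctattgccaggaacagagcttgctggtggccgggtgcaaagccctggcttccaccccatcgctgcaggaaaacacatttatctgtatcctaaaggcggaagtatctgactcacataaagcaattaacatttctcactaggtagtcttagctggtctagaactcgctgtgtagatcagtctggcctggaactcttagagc
Klf5: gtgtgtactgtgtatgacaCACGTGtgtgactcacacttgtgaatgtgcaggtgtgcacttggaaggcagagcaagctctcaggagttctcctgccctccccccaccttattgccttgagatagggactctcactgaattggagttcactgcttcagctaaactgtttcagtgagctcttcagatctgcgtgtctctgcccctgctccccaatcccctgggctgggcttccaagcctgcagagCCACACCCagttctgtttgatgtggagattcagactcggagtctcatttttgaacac
Neither peak held a recurrent word in its central 1 kb, where the words were sought. The Sall4 stretch held the KLF word once, and the Klf5 stretch held the KLF word once and the E-box once.

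Of the other lists, Grhl2, a grainyhead-like factor of the formative state, was the only 1 of 14 formative and primed factors nearest to a far peak, with 2 upstream. Of 27 signalling genes there were 2: Bmp7, a BMP ligand, with 5 far peaks 111 to 182 kb downstream of its TSS, and Lifr, the LIF receptor, with 1 at 106 kb. Of 31 factors of differentiated lineages there were 3, each with 1 far peak: Foxa2 and Gata6, endoderm factors, at 75.6 and 73.6 kb, and Irx1 at 288 kb. The Irx1 peak was word-sharing (70 words) and the Foxa2 and Gata6 peaks were not.

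Synaptic and adhesion genes were the list with the most genes nearest to a far peak, though not as a share of those nearest to far territory, where pluripotency factors stood at 44.4%. Of 37 autosomal genes of this list, 14 were nearest to a far peak (37.8%, 24.1 to 53.9%), which is 42.4% of the 33 that were nearest to far territory. These genes carry long stretches without other genes, and 33 of 37 were nearest to far territory against 5242 of all 26016. They had 24 far peaks in all. Cdh9 had 4, 3 of them word-sharing, Cdh2, the N-cadherin gene, had 3 and Pcdh10 had 3. Cdh8, Cdh20 and Robo2, a receptor of axon guidance, had 2 each, all of them word-sharing. Cdh11, Cdh18, Pcdh7, Slitrk5, Sema3a, Robo1 and Flrt2 had 1 each. The lists were chosen with earlier results of these data known, and the counts are descriptions.

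The genes with the most far peaks as nearest neighbours were not on the lists, apart from Sall1 and, with 5, Bmp7. The lincRNA gene D730003K21Rik and Dad1, which encodes a subunit of the oligosaccharyltransferase, had 8 each. Oxr1, of oxidation resistance, had 7. Aasdhppt, the lincRNA gene Gm49451 and Rybp, a subunit of a variant Polycomb complex, had 6 each, and 5730507C01Rik, Adcyap1, a neuropeptide gene, and Ajap1 had 5 each, as Bmp7 did. The 8 peaks of D730003K21Rik were 1066 to 8025 bp wide, none word-sharing, and lay 52.5 to 218 kb downstream of its TSS. The 6 of Aasdhppt included 4 word-sharing peaks, with 31, 81, 184 and 286 words.

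Of 3417 intervals between neighbouring TSSs that held far territory, 780 (22.8%) held a far peak. Of these, 485 held 1, 165 held 2, 114 held 3 to 5 and 16 held 6 or more. The interval from Olfr1507 to Dad1 on chromosome 14 held 9 far peaks in 1758 kb. It spans the T cell receptor alpha locus, whose gene segments are annotated as T cell receptor genes and not as protein-coding. There 7 of the 9 peaks overlapped a gene of another biotype, 4 of them a T cell receptor gene segment, and 3 were word-sharing.

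The interval from Gm34322 to Rplp1 on chromosome 9 held 9 in 472 kb, 1 of them word-sharing. The interval from Tfap2c, a trophoblast and germ cell factor, to Bmp7 held 8 in 388 kb, with GC contents of 48.5 to 54.6%, and that from D730003K21Rik to Rbms3 held 8 in 492 kb. Neither of the last 2 held a word-sharing peak. The interval from Hpcal1 to 5730507C01Rik held 7, of which 6 overlapped a gene of another biotype. The interval on chromosome 15 that ends at Oxr1 tied with it, also with 7.

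Distances between neighbouring peaks depend in part on the rule, since a far peak can have no promoter peak of a protein-coding or lincRNA gene nearby while a peak at 10 to 50 kb can, and they are given as descriptions. The median gap to the nearest peak of the list was 39.0 kb for far peaks, 12.1 kb for intergenic peaks 10 to 50 kb from a TSS and 6.52 kb for those within 10 kb. Another peak was within 25 kb of 524 far peaks, which is 39.6%, against 70.99% at 10 to 50 kb. Within 5 kb the shares were 13.1% and 23.6%, and at the distance commonly used to stitch enhancers together, which lies between those limits, they were 27.7 and 50.7%. No gap between autosomal peaks of the list was under 2001 bp, since the study merged peaks that lay near each other. Linked where the next far peak was within 25 kb, the far peaks made 1067 runs, of which 880 were single peaks and 16 held 4 or more. The run with the most peaks held 6 over 59.9 kb at chr11:114529439-114589344, between 4932435O22Rik and Rpl38.

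After removal of protein-coding and lincRNA genes, some far peaks still lay over annotated genes. A gene of another biotype overlapped 125 far peaks, 9.45% (7.99 to 11.1%), against 4.20% of the tiles, a difference of 5.25 percentage points (95% Newcombe interval 3.79 to 6.95). A peak is often wider than a tile and has more chance to overlap a gene: by its midpoint alone, 5.74% of the far peaks lay in such a gene. Processed pseudogenes were overlapped by 31 far peaks (2.34%, against 0.714% of tiles), antisense genes by 25 (1.89% against 0.764%), processed transcripts by 24 (1.81% against 1.06%), and pseudogenes of any kind by 55. T cell receptor or immunoglobulin segments were overlapped by 8. In the RefSeq annotation of the same assembly, 270 far peaks (20.4%) overlapped a gene, 181 of them a lncRNA and 32 a protein-coding gene, against 10.4% of the tiles for any gene.

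Of the 2 far peaks over a miRNA gene, that of Mir193b was 2459 bp wide, at chr16:13447202-13449660, 70.8 kb from the TSS of 2310015D24Rik. The other lay over Gm25476. The mature miRNAs of Mir193b, from RefSeq on GRCm38.p6, are printed with their seeds (bases 2 to 8) in capitals because they are the annotated product inside a far peak.
mmu-miR-193b-5p: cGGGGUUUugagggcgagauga
mmu-miR-193b-3p: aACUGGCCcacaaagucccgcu
The precursor, chr16:13449523-13449601 on the plus strand, lies within the last part of the peak. Mir193b itself is not among the genes the rule used.

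Far peaks had fewer G and C bases than peaks near genes and more than the sequence around them. The median GC content was 44.8% (95% interval 44.5 to 45.2%) in far peaks, 47.4% (47.2 to 47.6%) in peaks at 10 to 50 kb and 48.1% (47.8 to 48.4%) in those within 10 kb. The Hodges-Lehmann shift (the median of all differences between pairs of peaks) against peaks at 10 to 50 kb was -2.72 percentage points (95% interval -3.03 to -2.41), and without word-sharing peaks in either class it was -1.76. Against 1 kb of sequence 5 kb outside each edge, the GC content of far peaks was higher by 2.97 points at the median (2.72 to 3.30), and 1012 of 1323 far peaks (76.5%) were above their flanks. The same difference was 2.81 points (2.59 to 2.97) at 10 to 50 kb.

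Far peaks held a CpG-rich stretch less often than peaks near genes and more often than tiles. Such a stretch was defined as 200 bp with a GC content of at least 50% and a ratio of observed to expected CpG of at least 0.6, and was found in 334 far peaks, 25.2% (23.0 to 27.7%), against 36.2% (34.4 to 38.1%) at 10 to 50 kb and 69.6% in peaks over genes. In windows of 1 kb, the shares were 14.5% (12.7 to 16.5%) for far peaks and 3.43% for tiles. The far peak richest in G and C, at 75.2%, was chr4:14930164-14930974, 66.1 kb from Pip4p2.

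The median repeat-masked share was 28.1% (27.04 to 29.7%) in far peaks, 24.5% (23.7 to 25.2%) at 10 to 50 kb and 14.3% in peaks over genes. The median difference of far peaks from their flanks was -2.66 points (-4.44 to -1.03), and 605 of 1323 (45.7%) were more masked than their flanks. At 10 to 50 kb the same difference was -7.60 points (-8.76 to -6.46). Without the word-sharing peaks, the median difference of far peaks was -6.71 points. Beyond 100 kb from a TSS it was 0.13 points, with an interval of -2.16 to 2.28 points.

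**Figure D4:**
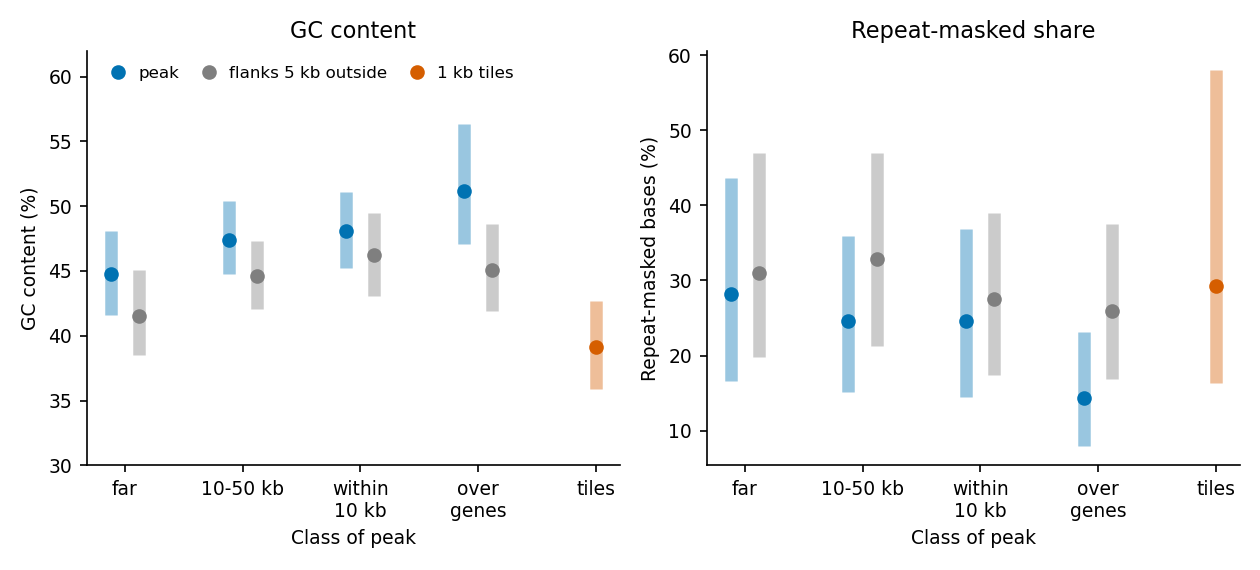
GC content (left) and repeat-masked bases (right), in percent, for peaks of 4 classes, for 1 kb flanks 5 kb outside their edges and for tiles; points are medians and bars span the quartiles. Far peaks have a median GC content of 44.8% above flanks of 41.6%, and a masked share of 28.1% beside flanks of 31.0%.

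Words bound by several factors of the naive stem cell state were more common in far peaks than in tiles, and 2 of the 4 were more common still in peaks at 10 to 50 kb. The octamer was not more common than in tiles. Each word was searched on both strands in the 1 kb around the midpoint. A match is a description of the letters and not a bound site. The median GC content of these windows was 44.8% in far peaks and 39.1% in tiles. Its part in the differences from tiles was not tested. ESRRB (TCAAGGTCA) was in 70 far peaks, 5.29%, against 1.57% of tiles, a difference of 3.72 percentage points (95% Newcombe interval 2.64 to 5.07). Outside repeat-masked bases it was in 2.42% against 0.941% (1.48, 0.78 to 2.45). KLF (CCACACCC) was in 10.4% against 4.22% (difference of 6.13, 4.60 to 7.89). STAT (TTCCNGGAA) was in 4.23% against 2.36% (1.88, 0.92 to 3.10). TFCP2L1 (CCAG repeated after a gap of 6 bases) was in 11.5% against 5.61% (5.88, 4.27 to 7.71).

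Peaks at 10 to 50 kb held the TFCP2L1 word more often than far peaks, 14.2% against 11.5% (far minus these peaks -2.75, -4.88 to -0.50), as they did the KLF word, 14.5% against 10.4% (-4.15, -6.23 to -1.96). They held the ESRRB word in 5.59% and the STAT word in 5.08%, and both differences from far peaks, -0.29 and -0.85 points, had intervals that held 0.

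The OCT octamer was in 9.67% of far peaks and 10.7% of tiles, a difference of -1.03 points whose interval (-2.51 to 0.68) held 0. Outside repeat-masked bases it was in 6.12% of far peaks and 4.93% of tiles (1.19, 0.02 to 2.62), the opposite sign. SOX (CCATTGTT) was in 5.59% and 6.68% (-1.08, -2.20 to 0.29). Far peaks had the octamer more often than peaks at 10 to 50 kb did, 9.67% against 7.49% (2.19, 0.36 to 4.15), but the same letters in another order (AGCATAAT) differed too, 4.69% against 1.98% (2.71, 1.52 to 4.07). That reordered word was in 10.5% of word-sharing peaks and 2.81% of the other far peaks, and the octamer in 11.7% and 9.02%.

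A word with the same letters in another order was counted beside 7 of the motifs. That of ESRRB (TGACTGACA) was in 1.44% of far peaks and 1.16% of tiles, and that of STAT (TCTCNAGAG) in 5.14% and 4.13%, differences of 0.27 and 1.01 points whose intervals held 0. That of KLF (ACCCCCAC) was in 8.54% and 4.29% (4.25, 2.86 to 5.88), and it too was less common than in peaks at 10 to 50 kb (-2.13, -3.99 to -0.14). Outside masked bases its difference from tiles was 1.08 points (0.39 to 2.04), and that of the KLF word 4.89 (3.63 to 6.39). Those of the octamer and of SOX (CTATCTGT) exceeded tiles by 0.71 and 0.44 points, with intervals that held 0. Outside masked bases their differences from tiles were -0.43 (-1.14 to 0.56) and -0.29 points (-0.96 to 0.66). Those of GATA (AAGAATGA) and RUNX (TTGTTGGT) fell short of tiles by more than the words themselves did: they were in 7.71% and 4.01% of far peaks against 10.98% and 6.74% of tiles, with differences of -3.27 (-4.59 to -1.71) and -2.74 points (-3.67 to -1.54).

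Within far peaks, matches of ESRRB were 1.97 times as dense within 500 bp of the midpoint as beyond 3000 bp (71 and 144 matches), those of KLF 1.88 times and those of the octamer 1.18 times. Their reordered words were 1.23, 1.77 and 1.45 times as dense, so that the ratio of the octamer was below that of its letters. GATA matches were less dense near the midpoint, at 0.675 times, and those of its reordered word stood at 0.831 times.

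Of the other motifs, the E-box of MYC was in 13.8% of far peaks and 6.91% of tiles (6.92, 5.17 to 8.89) and in 16.3% of peaks at 10 to 50 kb (far minus these peaks -2.46, -4.75 to -0.06), ETS (CCGGAAGT) in 1.28% and 0.342% (0.94, 0.46 to 1.71) and in 2.37% of peaks at 10 to 50 kb (-1.08, -1.90 to -0.16), AP-1 (TGANTCA) in 30.6% and 26.8% (3.77, 1.34 to 6.31) and the CTCF motif in 0.605% and 0.242% (0.36, 0.06 to 0.95). CTCF, which holds the bases of chromatin loops, was in a smaller share of far peaks than of peaks at 10 to 50 kb, 1.82% (difference of -1.22, -1.88 to -0.48). Words of factors of other lineages were less common than in tiles: GATA (AGATAAGA) in 4.08% and 5.63% (-1.55), MEF2 (CTATTTATA) in 0.831% and 1.97% and HNF1 (GTTAATNAT) in 2.65% and 4.34%, with intervals below 0, while that of RUNX (TGTGGTTT, 7.63% and 8.97%, -1.33) held 0. TFCP2L1, the E-box, ETS, MEF2 and HNF1 had no reordered word beside them, and the lower GC content of tiles was not matched. Several of these calls depended on the setting. The interval of GATA held 0 in windows of 500 bp, outside repeat-masked bases and without word-sharing peaks (-0.80, -0.89 and -1.32), and that of MEF2 outside masked bases (-0.54). That of AP-1 held 0 outside masked bases and in windows of 2 kb (1.67 and 2.50), and that of CTCF in windows of 500 bp and with 1 peak per interval (0.03 and 0.14). That of RUNX lay below 0 without word-sharing peaks (-1.85), and that of SOX in windows of 2 kb (-2.70). YY1 (AAGATGGC) was in 6.27% and 9.68% (-3.41, -4.60 to -1.97), and outside repeat-masked bases the difference was 0.46 points with an interval that held 0. The CRE (TGACGTCA) was in 5 far peaks, 0.378% against 0.396%.

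**Figure D5:**
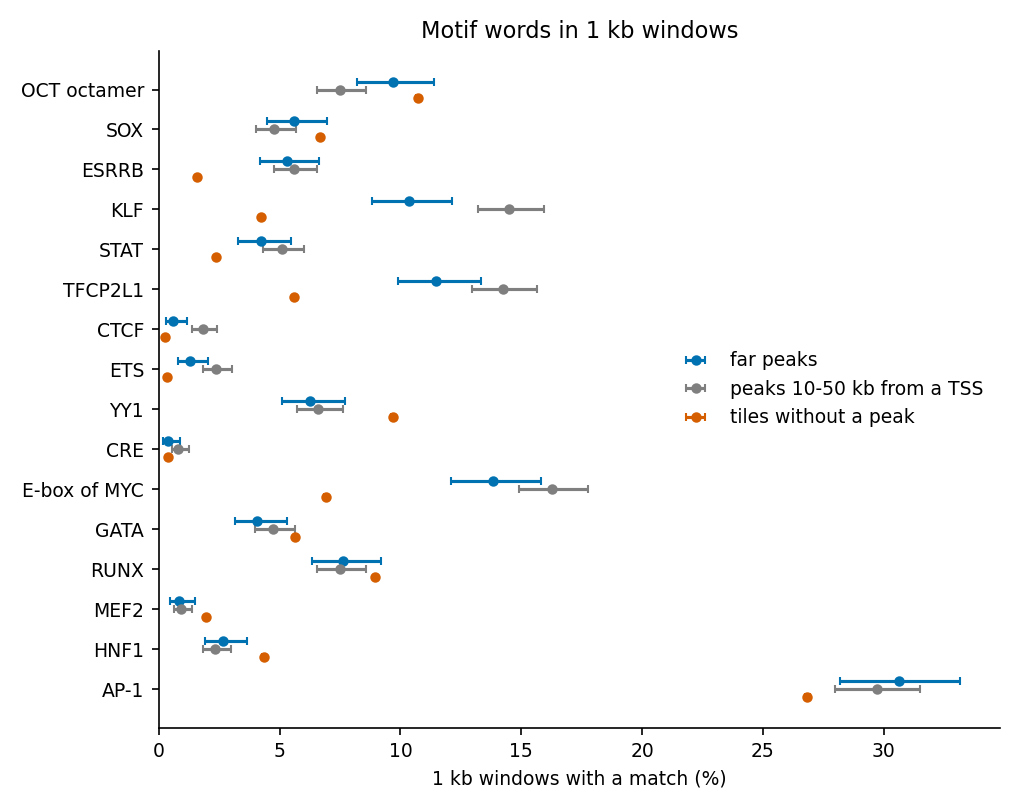
Percent of 1 kb windows with a match to each motif, on either strand, in far peaks (blue), in peaks 10 to 50 kb from a TSS (grey) and in tiles (orange); points are shares and lines are 95% Wilson intervals. ESRRB, KLF, TFCP2L1 and the E-box of MYC lie above the tiles in far peaks, and the octamer, SOX, YY1 and GATA do not.

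The composite of a SOX and an OCT site (CATTGT 1 base before ATGCAAAT) was in 1 far peak, chr13:57362013-57363735, 466 kb from the TSS of Trpc7, a cation channel gene. It is printed, on the minus strand of chr13:57362712-57362846, with the composite in capitals.
composite: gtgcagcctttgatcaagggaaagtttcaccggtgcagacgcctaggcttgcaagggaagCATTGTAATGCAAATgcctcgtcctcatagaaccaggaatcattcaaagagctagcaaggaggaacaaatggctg
Of the 998 far peaks that were not word-sharing, this was the only one with the composite, and no word-sharing peak held it.

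Words of 8 bases were counted as well. Of 13519 words in at least 3% of far peaks, 1000 were at least 2 times as common in far peaks as in tiles. The 10 with the highest ratios ranged from 11.2 times for CCACCCGC (4.08% against 0.364%) to 5.79 times for GCCACGCC, with GCCCCGCC, ATGCTCGA, CCACGCAG, CCCGCTTC, GCTCCACC, CAGCCCCG, GGCTCCAC and ACGTGCTC between. ATGCTCGA, whose reverse complement TCGAGCAT is in capitals in both group 2 copies above, was in 41 word-sharing peaks (12.6%) and 4 others (0.401%). GCTCCACC was in 201 far peaks (15.2% against 2.36% of tiles), 129 of them word-sharing, and it is in both group 6 copies above, in lower case. GCCCCGCC, CAGCCCCG and GCCACGCC were in 4.11, 3.51 and 3.71% of the other far peaks and in 1.23, 2.15 and 0.923% of the word-sharing peaks.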

How the data were processed

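Members and lists were chosen with earlier results of these data known. The study had 6 samples, and the deposited list used here, called on the 2 control samples together, has 3 columns, chromosome, start and end in bp, which are positions and no count, signal or score. Per the labels and the study's methods, the authors trimmed reads with cutadapt, aligned them with BWA to mm10 together with a human genome, removed duplicates with Picard 2.9.1 and reads of low mapping quality with SAMtools 1.4, called peaks with LanceOtron, merged peaks near each other and dropped weak peaks and those away from accessible sites. The list holds no depth, and the read numbers the study states for its libraries were not used here. Starts were written 1-based. Genes were those of GENCODE M21 on GRCm38 (27805 protein-coding and lincRNA genes, 110193 transcripts), which differs from the release the study names. Sequence was read from RefSeq GRCm38.p6, whose lower case gave the repeat-masked bases, in Python 3.11.15 with pysam and SciPy 1.17.1. Shares carry 95% Wilson intervals, differences of shares Newcombe intervals, shifts Hodges-Lehmann estimates with the interval that inverts the Mann-Whitney test, and medians order-statistic intervals. No p-values were computed, because peaks of 1 pooled list are not replicates. Genes named are the nearest genes of the 5 farthest far peaks, the 10 genes nearest to the most far peaks, the listed genes nearest to any and those that flank the 5 fullest intervals; other genes only place a printed region or the distance limit, and were named after their values were seen. A listed gene is not reported here. Recurrent 16-base words were defined after the data were seen and joined by average linkage of their peak sets, with the tree divided at a Jaccard distance of 0.8. Scripts were tested on simulated data.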

Additional observations from a re-analysis of the deposited data

How the results depend on the processing

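No paired analysis was possible because the list pools both control replicates, and for the same reason no replicate could be left out. The number of far peaks, 1323, was 2376 at 25 kb, 649 at 100 kb, 638 with all annotated genes and 2339 with protein-coding genes alone; under the 6 other definitions it stayed within 1.5 times. Their density, 1.95 per Mb, was 2.70 at 25 kb, 1.36 at 100 kb and 1.72 with all annotated genes. The share with another peak at the stitching distance, 27.7%, was 13.1% at 5 kb, 39.6% at 25 kb and 54.0% at 50 kb, and the share over a gene of another biotype was 5.74% by midpoint. The masked share against flanks, -2.66 points, was -2.15 with 1 peak per interval, with an interval that held 0, and 0.13 at 100 kb. The octamer's difference from tiles, -1.03 points, was 0.77 in windows of 500 bp, -2.52 in windows of 2 kb (an interval below 0), 1.19 outside masked bases and 0.35 at 100 kb. SOX turned to 0.74 and YY1 to 0.46 outside masked bases, the composite to -0.00297 with 1 peak per interval, and CRE, at -0.02, to 0.19 in windows of 2 kb, 0.12 with 1 peak per interval, 0.15 outside masked bases and 0.10 without word-sharing peaks. The cause was not tested in any of these. GC differences from flanks and from peaks at 10 to 50 kb kept their direction under all their alternatives, as did the recurrent words against tiles (21.5 to 25.8 points). In each of those alternatives the words had been chosen as rare in tiles. Of 80 values of the motifs other than the octamer under alternatives, 63 kept direction and side of 0. Alternatives with words, the runs of peaks, RefSeq genes, without word-sharing peaks, and all motif alternatives other than those of the octamer, were chosen after seeing the data. Depth limits which peaks were called, and by how much was not measured, since the list holds no counts.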
